A study of Mus musculus with 24 samples.

Results

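The candidate enhancer catalogues of the 2 leukemia cell populations of this study, deposited under the names k+ and k-, were compared region by region. On chromosomes 1 to 19, 9293 k+ regions and 13639 k- regions were compared, 22932 of the 23260 regions that these lists hold as deposited. The 315 regions on the sex chromosomes (109 in k+ and 206 in k-) were left out, as were 2 k+ and 11 k- regions on chromosome 11 below position 3100000. A region is called exclusive when it lay more than 1 kb from every region of the other list and overlapping when it met one by 1 bp or more. It is called flanking when it lay within 1 kb of the other list without meeting it.

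One leukemia population is labelled leukemia stem cell (LSC) and the other mature AML cells (mAML, for acute myeloid leukemia). Both were mouse bone marrow cells of strain C57BL/6 carrying the MLL-AF10 fusion, with no treatment listed, and the leukemia cells had been grown in culture. ChIP-seq, which sequences DNA bound to an immunoprecipitated protein, was made for H3K27ac, H3K4me1 and H3K4me3 with an input library, 4 libraries for each population and 8 in all. Each mark had 1 library per population, so no difference below has a replicate check or a p-value, and the intervals given for shares cover counting error only. Neighbouring regions are not independent, which makes these intervals too narrow. The labels do not say how the fusion was introduced, or whether cells came from 1 clone or several animals.

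Enhancers are stretches of DNA that raise transcription of genes that may lie far away. In active enhancers the nucleosomes carry H3K4me1 and H3K27ac, while H3K4me3 marks promoters. MLL fusion proteins tie chromatin-binding parts of MLL to partners that act in transcription elongation, and the leukemias they cause hold a hierarchy in which a subset of immature cells renews the disease and gives rise to more mature blasts. Kit, the receptor for stem cell factor, is a common marker for sorting immature from mature cells in such leukemias. No source used here says whether k+ and k- refer to Kit or which of LSC and mAML each list belongs to. Each list therefore keeps its own name. The lists hold positions alone, with 0 columns of score, and cell type markers and genes could not be read from them. No gene annotation or sequence of their build, mm9, was used here, so regions are placed by position and chromosome band, and no gene is named.

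The k- catalogue was the longer one, and the surplus lay mostly in regions of its own. It held 1.47 times as many regions as k+ and covered 16.6 Mb against 10.3 Mb, which was 1.62 times the length. Overlapping regions were almost equal in number, 5665 in k+ and 5406 in k-. Overlap is mutual, so these numbers can differ only where a region meets 2 or more of the other list. Overlapping regions made up 61.0% of the k+ list (95% exact Clopper-Pearson interval 60.0 to 62.0%) and 39.6% of the k- list (38.8 to 40.5%). Exclusive regions were 2784 in k+, or 30.0% (29.0 to 30.9%), and 7299 in k-, or 53.5% (52.7 to 54.4%). Exclusive k- regions were thus 2.62 times as many as exclusive k+ regions and covered 3.36 times their length. The remaining 844 k+ and 934 k- regions were flanking, 9.08% and 6.85% of their lists. With overlapping numbers held nearly equal, the list with more regions has the lower overlapping and the higher exclusive share by number alone.

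The gap between the lists in exclusive share was 23.6 percentage points, and it was smaller between lists of equal number. When k- was reduced to its 9293 widest regions, none under 600 bp, while k+ kept all widths, 38.2% of k+ and 45.1% of k- regions were exclusive, a gap of 6.92 points. This changed the number and the widths of k- regions together, so their parts cannot be told apart. At that size 55.0% of k+ and 50.7% of k- regions overlapped. The exclusive share of k- stayed the higher one. The lists carry no scores, so sequencing depth and calling threshold cannot be told apart from the cell populations as sources of the different lengths.

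In base pairs the common part was about the same share of each list as in regions. The lists shared 6.32 Mb, which was 61.7% of the k+ length and 38.0% of the k- length. Exclusive regions, being narrow, held 17.3% of the k+ length and 35.9% of the k- length. Where regions overlapped, 3.76 Mb of the k- regions involved lay outside k+, against 1.74 Mb of the k+ regions outside k-. The longer k- coverage therefore came both from exclusive regions, with 5.97 Mb against 1.78 Mb, and from wider extents at common sites.

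**Figure D1:**
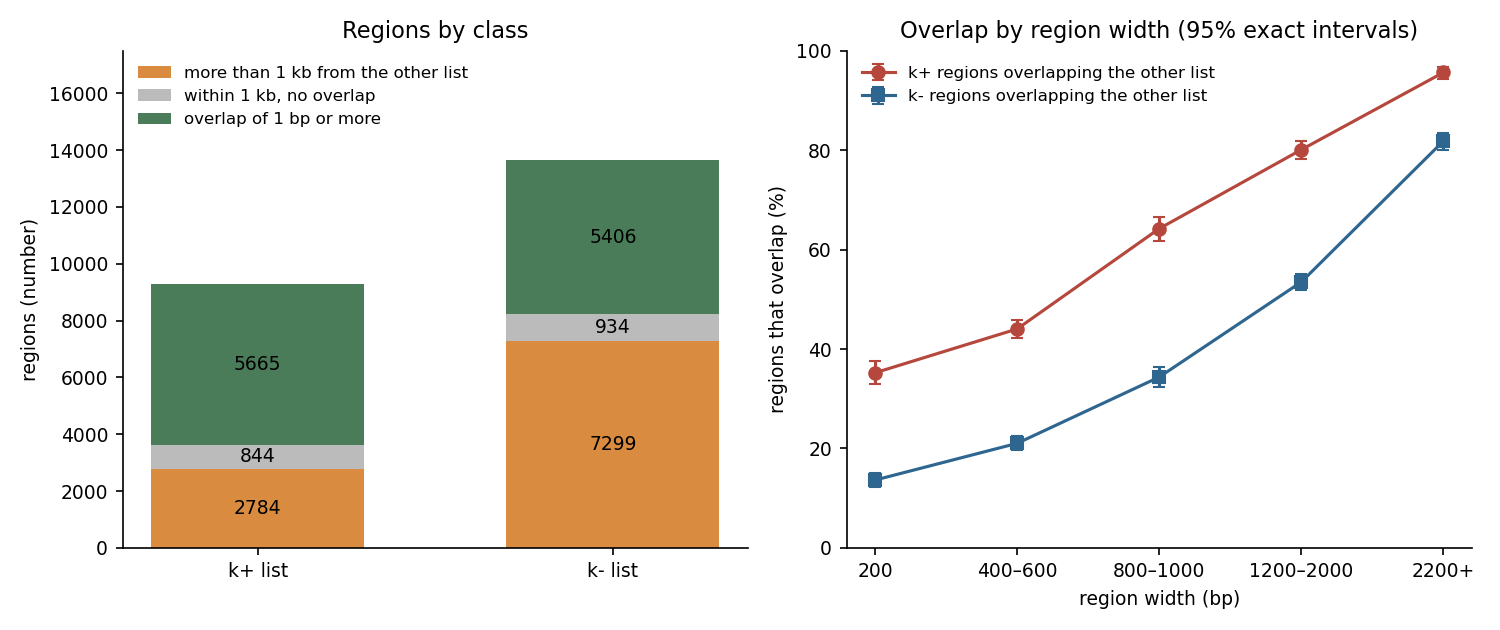
Left, number of regions in each class for the k+ and k- lists (bars from 0, stacked by class). Right, percent of regions that overlap the other list by region width in bp, with 95% exact intervals; overlap rises with width in both lists, from 35.2% to 95.6% for k+ and from 13.6% to 81.8% for k-.

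Width separated the classes in both catalogues, as the plot of overlap by region width shows. The median width was 400 bp for exclusive k+ regions (quartiles 400 and 800 bp) and 1200 bp for overlapping k+ regions (600 and 1800 bp). For k- the medians were 600 bp (400 and 1200 bp) and 1600 bp (800 and 2400 bp). Flanking regions were narrow in both lists, with medians of 400 bp, and 42.2% of those in k+ and 38.8% of those in k- measured only 200 bp, the unit of the grid on which all positions lie. Part of this order is built into an overlap of 1 bp, since a long region can meet a partner at more positions.

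Among the narrowest k+ regions, of 200 bp, 35.2% (32.9 to 37.6%) overlapped k-, below the 61.0% of the whole list. Among k+ regions of 2200 bp or more the share was 95.6% (94.3 to 96.7%), and 44 of these 1213 regions were exclusive. For k- the share rose from 13.6% (12.2 to 15.1%) at 200 bp to 81.8% (80.1 to 83.5%) at 2200 bp or more, where 359 of 2102 regions were exclusive. The wide exclusive regions were thus mostly k- regions: 4.92% of exclusive k- regions reached 2200 bp, against 1.58% of exclusive k+ regions. At every width the k- share of overlap lay below the k+ share with intervals apart, and between 1200 and 2000 bp it was 53.5% (51.8 to 55.2%) against 80.1% (78.3 to 81.8%). Each width class also held more k- than k+ regions, 3429 against 2114 between 1200 and 2000 bp. The k- regions thus faced a sparser list at every width, which lowers their share of overlap by number alone.

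The widest regions of each class give the scale of these sites. The widest exclusive k+ regions measured 4200 bp on chromosome 6 in band qF3, from 127472801 to 127477000, and 4200 bp on chromosome 13 in band qA3.3, from 37962001 to 37966200. The third, of 4000 bp, lay on chromosome 10 in band qB2 from 43310401 to 43314400. Their nearest k- regions were 47.4, 8.60 and 72.4 kb away. The widest exclusive k- region measured 6200 bp on chromosome 19 in band qB, from 18689001 to 18695200, with the nearest k+ region 30.6 kb away. Next came 5600 bp on chromosome 4 in band qD3 from 135730201 to 135735800, which lay 143.8 kb from k+, and 5200 bp on chromosome 1 in band qB from 39949401 to 39954600, which lay 76.2 kb from k+.

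Among the 3 widest regions of each list, those of k+ were nearly filled by k-, while those of k- were covered by k+ over 36.5% to 75%. Over the whole lists, 61.7% of the k+ length lay in k- and 38.0% of the k- length in k+, so a lower cover of k- regions is general. The widest k+ region, 11600 bp on chromosome 1 in band qE4 from 132978801 to 132990400, was covered over 87.9% of its length by 2 k- regions. The second, 11200 bp on chromosome 3 in band qG3 from 131126401 to 131137600, was covered over 92.9% by 1 k- region. The third, 9600 bp on chromosome 8 in band qE2 from 129223601 to 129233200, was covered over 83.3%. The widest region of either list was a k- region of 17000 bp on chromosome 7 in band qD3, from 87918801 to 87935800, of which 36.5% was covered by 2 k+ regions. The k- region of 12000 bp on chromosome 17 in band qE1.1, from 66072801 to 66084800, was covered over 75% by 4 k+ regions. In the k- region of 11600 bp on chromosome 9 in band qC, from 66724801 to 66736400, 2 k+ regions covered 41.4%.

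Regions that met each other seldom had the same extent in both lists. In 4454 pairs 1 k+ region met 1 k- region and neither met another. Of these, 232 pairs, or 5.21%, had identical start and end. The k+ region lay inside a larger k- region in 2102 pairs, or 47.2% (45.7 to 48.7%), and the k- region inside a larger k+ region in 1013, or 22.7% (21.5 to 24.0%). The other 1107 pairs were staggered. The k- region was the wider one in 58.5% of pairs (57.1 to 60.0%) and the k+ region in 30.6% (29.2 to 32.0%). The median widths in these pairs were 1200 bp for k+ and 1400 bp for k-.

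The midpoints of paired regions lay a median of 200 bp apart, a single step of the grid, with an upper quartile of 500 bp. Pairs were chosen because they overlap, which by itself keeps their midpoints close. The median part of the joint span that both regions covered was 50%. At least 1 edge was common to both regions in 39.4% of pairs. More complex matches were fewer: 252 k+ regions met 2 or more k- regions, and 464 k- regions met 2 or more k+ regions, up to 4 in either direction. These were wide, with medians of 2800 bp (k+) and 3200 bp (k-).

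**Figure D2:**
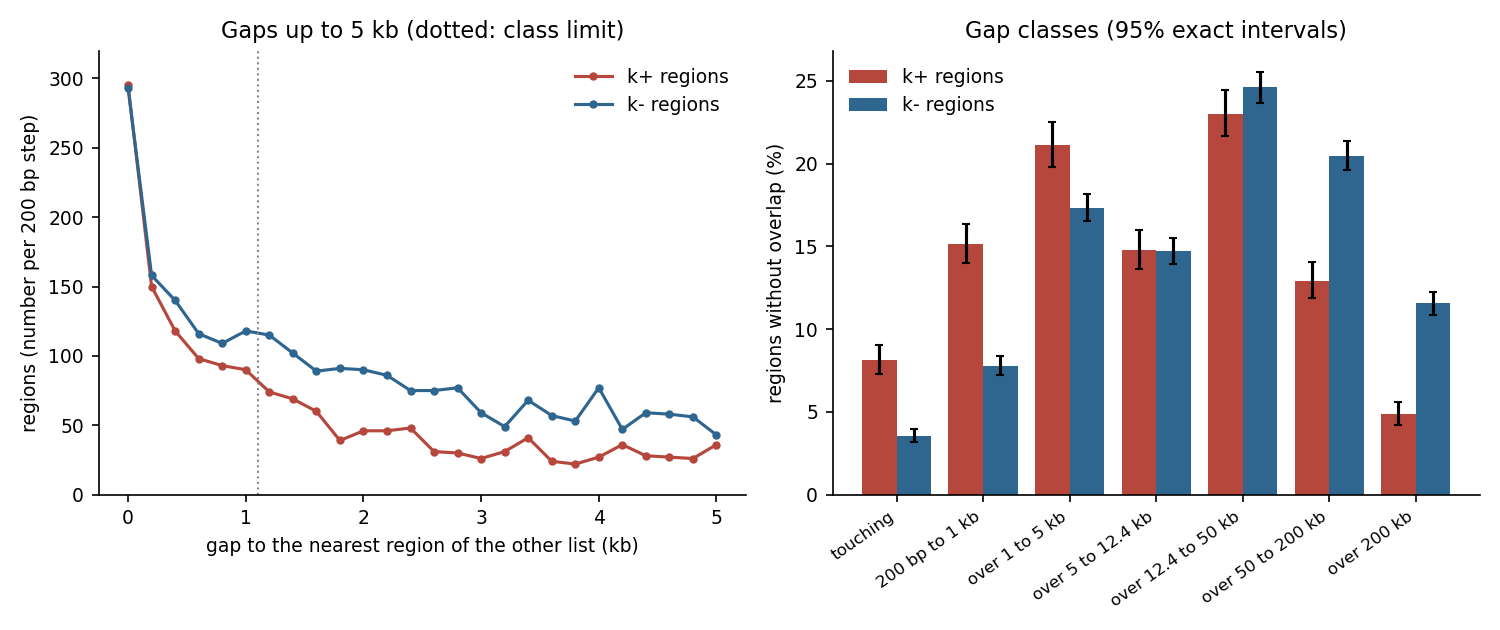
Left, number of regions without overlap by the gap in kb to the nearest region of the other list, in steps of 200 bp; touching regions outnumber those at the next step in both lists, and the dotted line marks the limit of the exclusive class. Right, percent of regions without overlap in each gap class with 95% exact intervals; k- has the larger share beyond 50 kb.

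Many regions that did not overlap lay beside the other catalogue, as the plot of gaps shows. Of the 3628 k+ regions without overlap, 295 touched a k- region, sharing a boundary but no base pair, against 150 with a gap of 200 bp and 118 with a gap of 400 bp. In k-, 293 of 8233 touched a k+ region, against 158 and 140 at these gaps. The median width of touching regions was 400 bp in both lists, and 125 of those in k+ and 119 of those in k- measured 200 bp. No region touched another of its own list. Around the limit of 1 kb the numbers showed no jump of that kind: 90 k+ regions had a gap of exactly 1000 bp and 74 of 1200 bp, and in k- these were 118 and 115. Counted as overlapping, the touching regions would raise the overlap to 64.1% of k+ and 41.8% of k-.

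Exclusive k- regions lay farther from k+ than exclusive k+ regions from k-. The median distance was 25 kb (quartiles 7.0 and 86.6 kb) for k- and 14.2 kb (4.60 and 45.6 kb) for k+. Among regions without overlap, 952 in k-, or 11.6% (10.9 to 12.3%), were over 200 kb from the other list, against 176 in k+, or 4.85% (4.18 to 5.6%). The k+ list is the sparser one, and distances to a sparser list are longer by construction. Distances to overlapping regions of the same list differed less, with medians of 37.3 kb for exclusive k+ and 41.2 kb for exclusive k- regions. The share of exclusive regions within 12.4 kb of an overlapping region of their own list was 29.4% (27.7 to 31.2%) in k+ and 28.5% (27.5 to 29.6%) in k-, with intervals that overlap.

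To ask whether the lists differed in domains or in single sites within common domains, regions of both lists no more than 12.4 kb apart were stitched together. Of the 8691 domains, 4105 held both lists, or 47.2% (46.2 to 48.3%). Another 3376, or 38.8%, held k- alone and 1210, or 13.9%, held k+ alone. Domains of a single list were small: 84.8% of those with k+ alone and 77.7% of those with k- alone were 1 region. A domain with both lists cannot be 1 region, so part of this contrast is built in. Domains with both lists held a median of 3 regions over 6200 bp and reached 35 regions.

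At the scale of domains, most of the k+ catalogue lay beside k- regions. Domains that also held k- took in 84.7% (83.9 to 85.4%) of all k+ regions, and domains that also held k+ took in 67.9% (67.1 to 68.7%) of k- regions. Of the exclusive k+ regions, 1361 of 2784, or 48.9% (47.0 to 50.8%), lay in such a domain, and of the exclusive k- regions 2917 of 7299, or 39.96% (38.8 to 41.1%). These shares rest on the stitching distance: at 5 kb they were 29.6% and 22.5%, and at 25 kb 64.5% and 54.0%. Exclusive regions had the same median width inside and outside such domains, 400 bp for k+ and 600 bp for k-. Regions of 1200 bp or more were 15.9% (14.0 to 17.9%) inside and 13.8% (12.02 to 15.7%) outside for k+, with overlapping intervals. For k- they were 27.2% (25.6 to 28.8%) inside and 23.9% (22.7 to 25.2%) outside, with intervals barely apart. Since these intervals are too narrow for neighbouring regions, they do not settle whether wide exclusive k- regions were more frequent inside.

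Within domains that held both lists, k- covered more base pairs in 2670, or 65.0% (63.6 to 66.5%), and k+ in 1143, or 27.8% (26.5 to 29.2%). The k- list covered 1.62 times the k+ length in all, which by itself favours k- in this count and the next. The k- length was at least 2 times the k+ length in 1371 of these domains, and the reverse held in 438. In 539 of them, or 13.1%, the lists met in no base pair. Exclusive regions of both lists occurred within the same domain in 630, or 15.3% (14.3 to 16.5%).

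**Figure D3:**
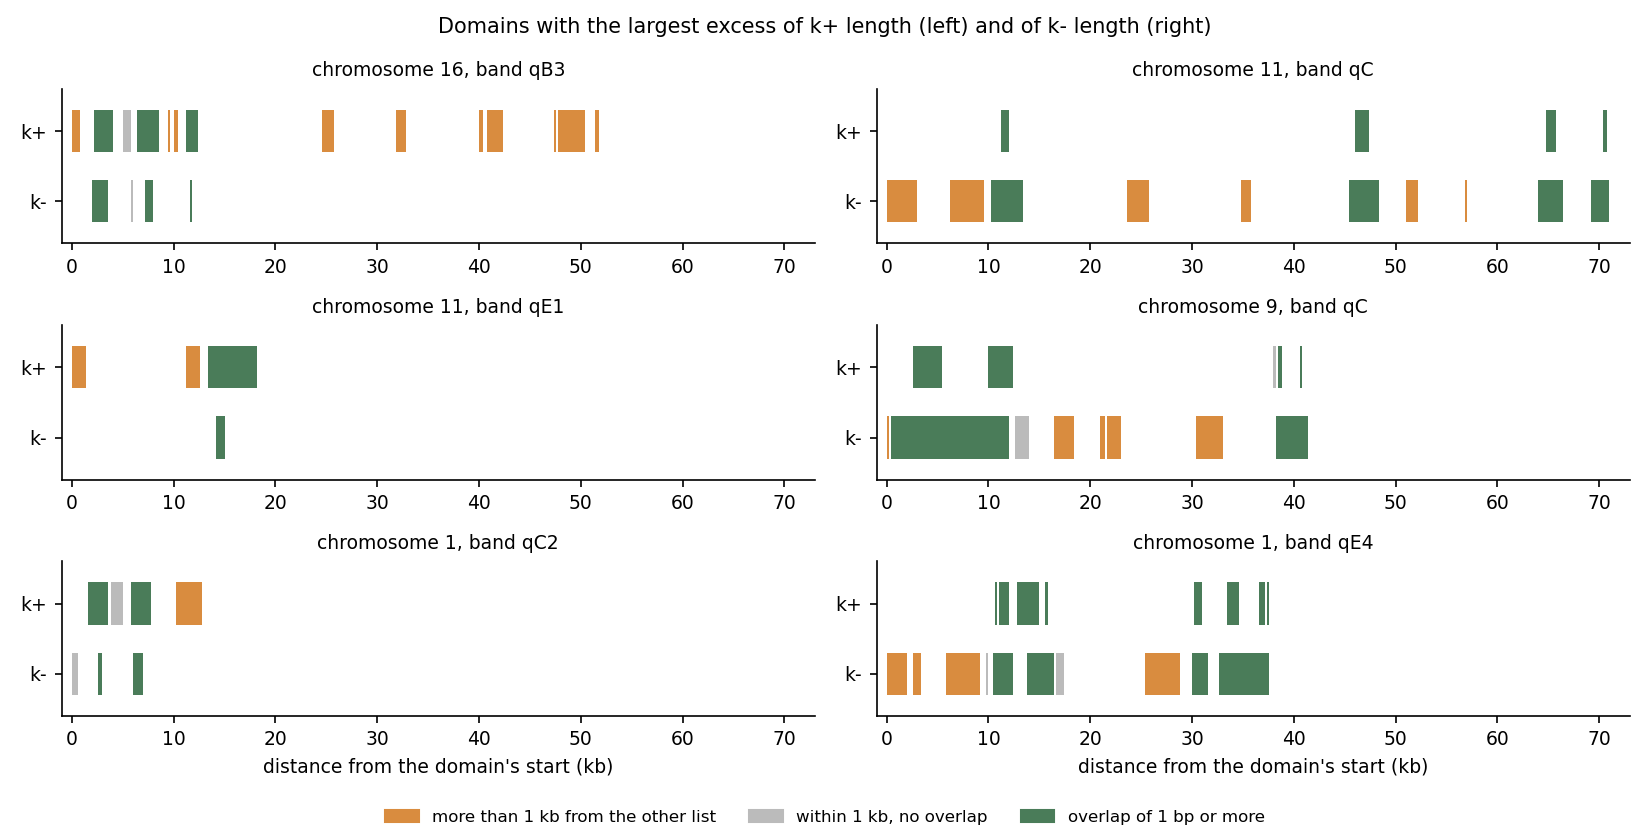
Regions of the k+ (upper row of each panel) and k- lists (lower row) in the 3 domains with the largest excess of k+ length (left) and of k- length (right), by distance in kb from the domain's start and coloured by class. In the domain on chromosome 16 the k+ regions of the right part have no k- partner. In the domain on chromosome 9 a k- region of 11600 bp meets 2 k+ regions, the second of which runs past its end.

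The domain with the largest excess of k+ length lay on chromosome 16. There, within band qB3 between 33745001 and 33796800, 14 k+ regions covered 14800 bp and 4 k- regions covered 2800 bp. Of its k+ regions 10 were exclusive, 1 was flanking and 3 overlapped, and none of its k- regions was exclusive. The last 7 k+ regions, from 33769601 on, ran to the end of the domain without a k- region among them. In the second, on chromosome 11 in band qE1 from 106548601 to 106566800, a k+ region of 4800 bp met a k- region of 800 bp, and in all k+ covered 7600 bp against 800 bp.

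The third domain with a k+ excess lay on chromosome 1 in band qC2 from 63166201 to 63179000, with 7800 bp of k+ in 4 regions and 2000 bp of k- in 3. The fourth, on chromosome 12 in band qD3 from 92646601 to 92656400, held 3 k+ regions covering 5600 bp and 0 k- regions. The fifth lay in band qB3 of chromosome 4, between 59432201 and 59478600, where 10 k+ regions covered 18600 bp and 8 k- regions 13400 bp, and all 8 of the k- regions overlapped k+. The difference between the lists in these 5 domains ran from 12000 bp down to 5200 bp.

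Domains in which k- exceeded k+ showed larger differences. The k- list as a whole covered 1.62 times the k+ length, so the lists are not ranked by this. On chromosome 11 in band qC, from 83407001 to 83478000, 10 k- regions covered 21400 bp and 4 k+ regions covered 3600 bp. All 4 k+ regions overlapped k-, while 6 of the k- regions were exclusive. On chromosome 9 in band qC, from 66724401 to 66765800, 8 k- regions covered 22800 bp, 11600 bp of it in the single wide region described above, and 5 k+ regions covered 6000 bp. On chromosome 1 in band qE4, from 140020401 to 140058000, 10 k- regions covered 21800 bp and 8 k+ regions 6400 bp.

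The remaining domains had the same form. On chromosome 7 in band qF5, from 148166601 to 148234800, 10 k- regions covered 18800 bp and 5 k+ regions 5800 bp. In band qE5 of chromosome 2, 9 k- regions covered 22400 bp between 117786001 and 117851400, and 6 k+ regions covered 9800 bp. None of these 5 domains held an exclusive k+ region, and they held between 3 and 6 exclusive k- regions each. They were picked by their excess of k- length, which favours domains with many exclusive k- and few exclusive k+ regions. The excess of k- length ran from 17800 bp down to 12600 bp. No domain had a k+ excess above 12000 bp.

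Domains of a single list reached 9 regions for k- and 4 for k+. The largest with k- alone, on chromosome 10 in band qB4 from 59714801 to 59747400, held 9 regions covering 8400 bp. It lay at the end of a longer stretch, from 59406201 to 59747400, in which 12 k- regions followed each other with no k+ region. Domains with 6 k- regions and no k+ region lay on chromosome 2 in band qC1.1 from 60003601 to 60022400, on chromosome 4 in band qA1 from 3647801 to 3688600 and on chromosome 19 in band qA from 9126801 to 9146000. On chromosome 11 in band qB5 6 more lay from 79959801 to 79991600.

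With k+ alone, 4 regions covering 1800 bp lay on chromosome 2 in band qH3 from 170198601 to 170213800. On the same chromosome in band qC2, 4 regions covering 1400 bp lay from 68813401 to 68822400. On chromosome 8 in band qA1.3, 4 regions of 1000 bp in all lay from 20008201 to 20012200. On chromosome 17 in band qE1.1, 3 regions covering 4400 bp lay from 65007801 to 65025000. The domains of k+ alone with the most regions were thus made of fewer and, except on chromosomes 12 and 17, narrower pieces than those of k- alone.

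The domains with the most regions in all were common to both lists. Regions of both lists were counted here, so an overlapping pair adds a region from each list and the ranking favours such domains. On chromosome 6 in band qG1, from 134043601 to 134155800, 17 k+ regions covered 29400 bp and 18 k- regions 33200 bp, and 12 regions of each list overlapped the other. On chromosome 2 in band qC1.1, from 59850001 to 59938400, 20 k+ regions covered 21400 bp and 15 k- regions 25200 bp. The domain of 6 k- regions and no k+ region given above lay 65.2 kb downstream of it. In each of the 5 domains with the most regions k- covered more base pairs, by 3800 to 7000 bp. Over the whole lists k- covered 1.62 times the k+ length, so a k- excess does not set these domains apart.

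Long runs of a single list were mostly k- runs. In order along the chromosome, 322 runs of 5 or more k- regions had no k+ region in or between them, and they held 2041 regions, or 24.8% of the k- regions without overlap. For k+ there were 15 such runs with 81 regions, or 2.23%. The more numerous list forms longer runs by number alone, so the lists are not ranked by this. The longest, with 16 k- regions, spanned 844.4 kb of chromosome 8 in band qC2, from 85427401 to 86271800. On chromosome 6 in band qF3, 12 k- regions lay within 79.8 kb, from 129233401 to 129313200. For k+ the longest runs held 7 regions, on chromosome 16 in bands qB3 and qA3 and on chromosome 4 in band qC6 from 102444201 to 102617600. These runs were singled out after their values had been seen.

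**Figure D4:**
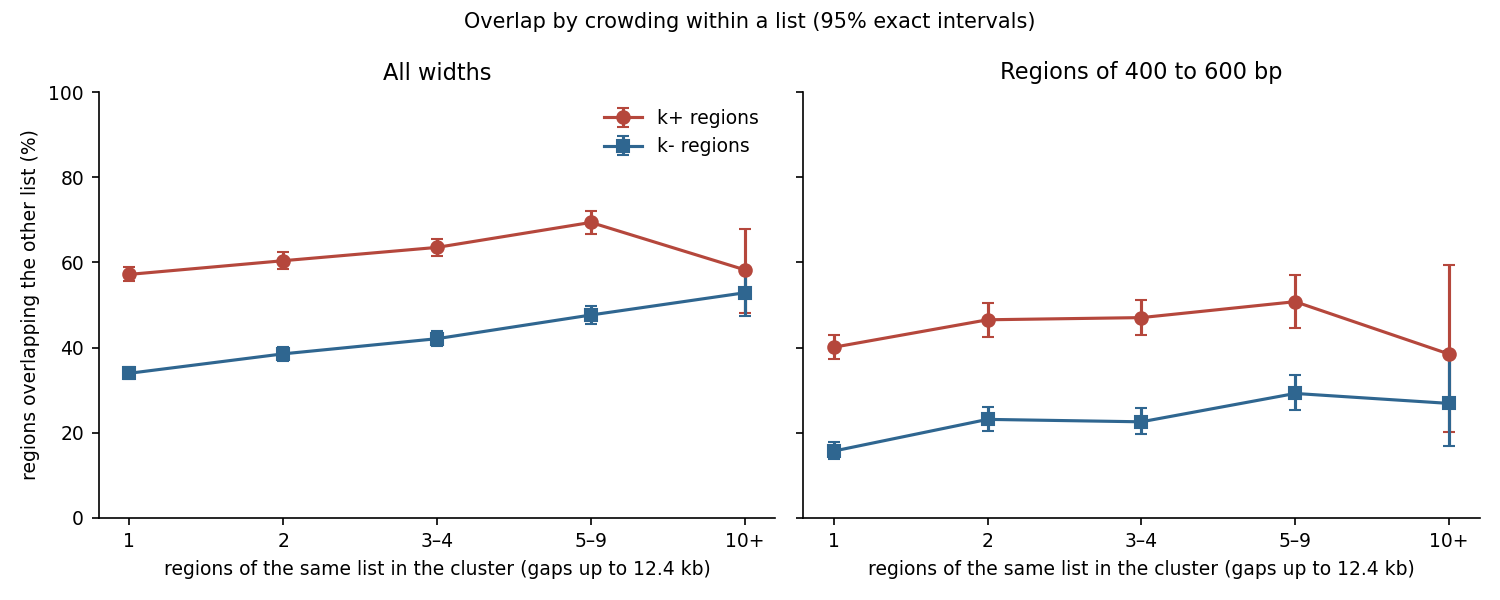
Percent of regions overlapping the other list (95% exact intervals) by the number of regions of the same list in their cluster, for all widths (left) and for regions of 400 to 600 bp (right). The share is higher in clusters of 5 to 9 than in clusters of 1 in both lists, and intervals are wide for clusters of 10 or more.

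Regions in clusters of 5 to 9 of their own list more often had a partner in the other list than regions alone. Clusters were formed here within each list at 12.4 kb, so that the other list had no part in them. Among k+ regions, the overlap was 57.2% (55.5 to 58.8%) for regions alone in their cluster and 69.4% (66.6 to 72.1%) in clusters of 5 to 9. Among k- regions it was 33.9% (32.6 to 35.3%) alone and 47.6% (45.6 to 49.7%) in clusters of 5 to 9. Clusters of 10 or more held 103 k+ regions, of which 58.3% (48.1 to 67.9%) overlapped, and 333 k- regions, of which 52.9% (47.3 to 58.3%) overlapped. The median width was 800 bp in clusters of 1 to 4 in both lists, 1000 bp in clusters of 5 to 9, and in clusters of 10 or more 800 bp for k+ and 1000 bp for k-.

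Regions of 400 to 600 bp were compared at nearly equal width. In k+, 40.1% (37.3 to 42.9%) of those alone and 50.8% (44.5 to 57.0%) of those in clusters of 5 to 9 overlapped. In k- these were 15.7% (13.8 to 17.7%) and 29.2% (25.2 to 33.4%). The order was not steady between and beyond these classes. In clusters of 10 or more the share was 38.5% (20.2 to 59.4%) of 26 k+ regions and 26.9% (16.8 to 39.1%) of 67 k- regions, and in k- it was 23.1% in clusters of 2 and 22.6% in clusters of 3 to 4. Spacing within each list differed by class: the nearest region of the same list lay a median of 11 kb from an exclusive k+ region and 5.80 kb from an overlapping one, and for k- these were 7.0 and 4.60 kb. Flanking regions, which overlap nothing in the other list, had the nearest neighbours of all, at medians of 1.4 kb in k+ and 1.2 kb in k-.

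**Figure D5:**
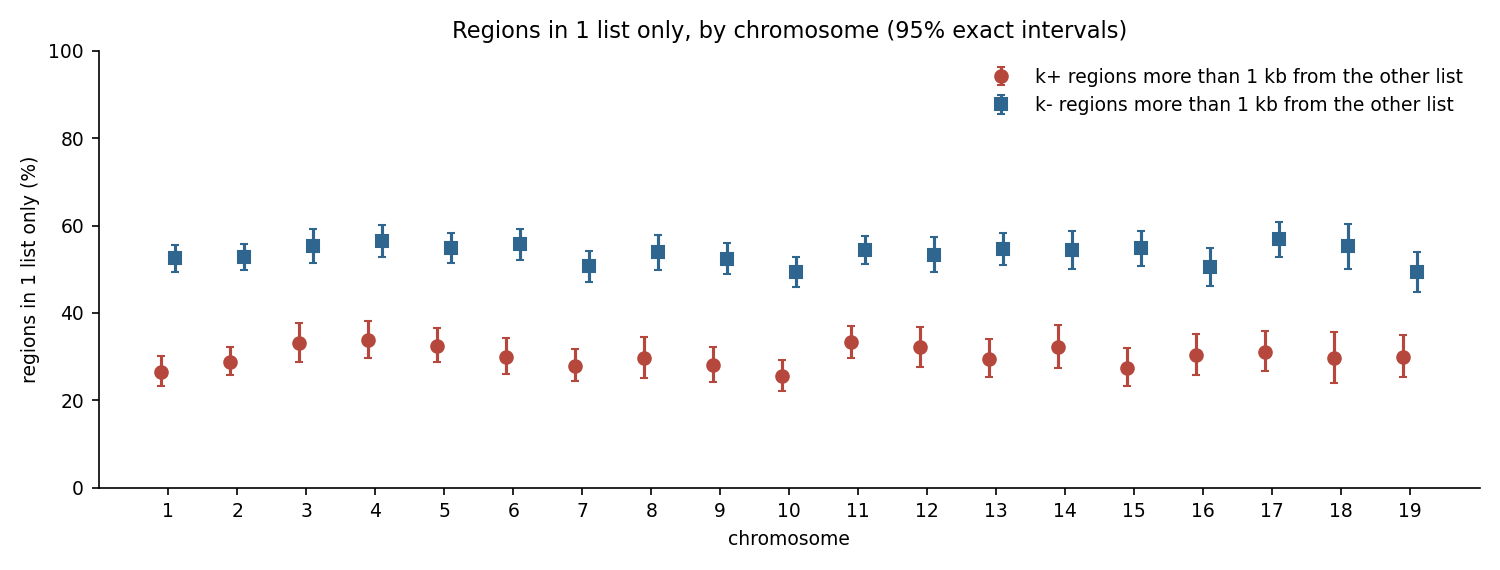
Percent of regions that are exclusive on each of 19 autosomes, with 95% exact intervals, for the k+ and k- lists. The k- share lies above the k+ share on all 19 chromosomes with no overlap of intervals. The k- list also holds more regions on each of them, which raises its share.

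No single chromosome carried the difference. The exclusive share of k- was the higher one on all 19 chromosomes, with intervals apart on each, as the plot by chromosome shows. It ran from 49.4% on chromosome 19 to 56.8% on chromosome 17 for k-, and from 25.5% on chromosome 10 to 33.9% on chromosome 4 for k+. The share of the whole list lay within the interval of 18 of 19 chromosomes in either list. The number of k- regions for each k+ region ran from 1.31 on chromosome 19 to 1.59 on chromosome 6. Where overlapping regions are about equal in number, as in the whole lists, the list with more regions has the higher exclusive share by number alone. Exclusive shares by chromosome were not computed at equal list size. Both lists were sparsest on chromosome 3, with 2.78 k+ and 3.95 k- regions per Mb. The densest were chromosome 19 for k+, with 5.82 per Mb, and chromosome 11 for k-, with 7.76 per Mb.

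Exclusive regions of both lists were spread widely. Of 2482 windows of 1 Mb on these chromosomes, 61.6% held an exclusive k- region, 44.9% an exclusive k+ region and 52.1% an overlapping k+ region. Of the 1114 windows that held an exclusive k+ region, 92.0% (90.3 to 93.5%) also held an exclusive k- region and 84.5% (82.2 to 86.6%) an overlapping one, both above the share over all windows. Of the 1530 windows with an exclusive k- region, 67.0% (64.6 to 69.3%) held an exclusive k+ region and 78.5% (76.4 to 80.5%) an overlapping one. In 212 windows exclusive k- regions lay without exclusive k+ or overlapping regions, and in 56 windows exclusive k+ regions lay without exclusive k- or overlapping regions. The window with the most exclusive k+ regions, 12, was on chromosome 16 from 33000001 to 34000000 and held the domain described above, with 7 exclusive k- regions. The window with the most exclusive k- regions, 23, was on chromosome 4 in band qD2.3 from 132000001 to 133000000, with 2 exclusive k+ regions and 26 overlapping k+ regions.

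The classes were alike in the stain of the chromosome bands they lay in, to within their intervals. Bands that Giemsa leaves unstained are known to be rich in genes, and those that stain darkest are poor in them. Unstained bands held 46.2% (44.4 to 48.1%) of exclusive k+, 47.1% (45.9 to 48.3%) of exclusive k-, 47.7% (46.4 to 49.0%) of overlapping k+ and 48.1% (46.7 to 49.4%) of overlapping k- regions, against 41.2% of the length of these chromosomes. The darkest bands held between 21.5% and 22.8% of these classes, against 31.2% of the length. All 4 intervals overlapped each other for either stain.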

How the data were processed

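The authors deposited region lists of 3 columns (chromosome, start and end) and 0 score columns, with no header line. The deposited values are positions in multiples of 200 bp. The submitters' processing notes name BWA, Picard, MACS2, HOMER and deepTools and the build mm9. Their order, settings and versions, the rule for calling an enhancer and the depth behind each region are not given by any source used here. Pooling of indexed chromatin before immunoprecipitation is recorded per the labels' protocols. The k+ and k- lists were used, and the other 4 lists were not used.

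Overlaps and gaps were computed in Python 3.11.15 with NumPy 2.4.6 and pandas 2.3.3, and class counts equalled those of bedtools 2.31.1. Exact Clopper-Pearson intervals came from SciPy 1.17.1, chromosome lengths from GenomeInfoDb and bands from circlize 0.4.16 in R 4.3.3, and figures from matplotlib 3.10.9. Positions are mm9, counted from 1. On simulated lists of 3000 regions with planted classes, 3000 were recovered. Each planted region had a single partner and lay apart from the other pairs. The simulation therefore did not check crowded sites, regions with several partners or domains of a single list. Named were the 3 widest exclusive and overlapping regions of each list and 5 domains of each kind. The classes, lists and rules were chosen with earlier results of these data known. Crowding, runs, windows and band stain were chosen once the data were known. Read signal was not analysed here. Genes, promoter distance and motifs were not analysed either, since no mm9 gene annotation or genome sequence was used.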

Additional observations from a re-analysis of the deposited data

How the results depend on the processing

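No paired analysis was possible because no group holds more than 1 sample, which also left no replicate to leave out. Settings for genes, promoter distance and sequence were not run. Of 67 alternative values, 19 stayed within the interval of the value reported and 48 moved. Most were single percentages or medians, for which a reversal is not defined. Only comparisons, such as the gap in exclusive share or the rise in overlap with width, could reverse, and 0 did. The exclusive share of k- stayed above that of k+ under every setting that gave both shares. Overlap fell to 59.3% of k+ and 38.5% of k- with 50% of the shorter region shared, and to 31.9% and 21.7% with 50% of both. Regions of 1 list only were 39.0% of k+ and 60.4% of k- (gap 21.3 points) at any distance without overlap, 21.7% and 43.1% (21.4) beyond 5 kb, and 15.9% and 34.2% (18.3) beyond 12.4 kb. Regions of at least 400 bp overlapped in 64.2% of k+ and 41.9% of k-. At 800 bp or more overlap was 69.6% and 42.9%, with 27.9% and 55.2% exclusive (27.3). With k- reduced to its widest regions, exclusive shares were 38.2% and 45.1% (6.92), and overlap 55.0% and 50.7%. Windows of 500 bp either side of the midpoint gave 31.1% of k+ exclusive, and overlap of 57.2% and 38.5%. Joining regions of 1 list within 1 kb gave overlap of 63.6% and 42.2%, and median widths of 600 and 1400 bp for exclusive and overlapping k+ and 800 and 1800 bp for k-. Touching counted as overlap, a setting chosen after seeing the data, gave 64.1% and 41.8%. The rise in overlap from 200 bp to 2200 bp or more was 60.4 points in k+ and 68.2 in k-, and 64.6 and 43.8 with 50% of both regions shared. Stitching at 5 kb put both lists in 42.8% of domains, with 29.6% of exclusive k+ and 22.5% of exclusive k- regions in them, and at 25 kb in 52.2%, with 64.5% and 54.0%. Beyond 5 kb, exclusive shares by chromosome ran from 18.1% to 26.4% in k+ and from 39.1% to 48.6% in k-. With all chromosomes and nothing left out, overlap was 61.0% and 39.5%. The depth behind each list is unknown, so its part in these values was not tested.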
